A study of Mus musculus with 96 samples.

Results

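A set of named genes of the growth hormone axis in liver, 6 of the 7394 genes in the deposited table, were described across genotype, diet, liver zone and mice. They were Bcl6, a transcriptional repressor, and Mup13, Slco1a1, Car3, Egfr and Igf1, which respond to growth hormone in liver. They were taken by target name, and that list of names was drawn up from results of these same livers: Slco1a1, Mup13, Egfr, Car3 and Igf1 from the comparison of a high-fat diet (HFD) with a low-fat diet (LFD) in wild-type (Wt) mice, and Bcl6 from that of mice heterozygous for a Gaa knockout (HetKO) with Wt mice on LFD. Values from those comparisons are therefore given as a description, and where a count of calls stands beside the share over all genes, nothing is read from it.

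Growth hormone binds its receptor on the hepatocyte, which activates the kinase JAK2 and through it the transcription factor STAT5b. In male mice growth hormone arrives in pulses, and the pulsed activity of STAT5b keeps male-biased genes such as the urinary proteins and Slco1a1 high and female-biased genes low. Bcl6 occupies many of the DNA sites that STAT5 uses and represses genes there, and it is itself more abundant in male than in female liver.

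The livers came from 16 male mice, 4 for each pairing of genotype (Wt or HetKO) with LFD or HFD, kept 15 weeks on the diet from about 8 weeks of age. HetKO mice carry a whole-body, constitutive loss of a single allele of Gaa, the lysosomal acid alpha-glucosidase that breaks down glycogen, in a line made by inserting LoxP sites around exons of Gaa and crossed to C57BL/6. Transcripts were measured on the GeoMx platform in 5 µm sections of fixed, paraffin-embedded liver. Each liver gave 3 areas of illumination (AOIs) per zone, the periportal ones chosen by E-cadherin and the perivenous ones by Cyp2e1 staining. Each AOI covered between 118 and 788 nuclei. Values are the deposited gene abundances, read counts scaled so that every AOI has the same upper quartile, and the 3 AOIs of a mouse and zone were averaged to give 1 value per mouse. A probe was taken as above background in an AOI when it passed the limit of quantification (LOQ) that the platform derives from negative control probes.

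The reads behind an AOI ranged from 60874 to 1772443 (median 536938). Background was not even across the groups. The scaled level of the negative probe averaged 16.5 periportally and 19.1 perivenously in Wt LFD mice, 18.6 and 19.5 in HetKO LFD mice, 29.7 and 30.6 in Wt HFD mice, and 23.6 and 25.8 in HetKO HFD mice. Within Wt HFD, mouse 1 stood apart, with a median gene 2.11 (periportal) and 2.13 (perivenous) times the negative probe against 1.26 to 1.57 in the other mice and its members' values are also given without it. All LFD sections lay on a single slide and all HFD sections on another, so that diet and slide cannot be told apart. The summed level of 10 hepatocyte markers, albumin among them, had a periportal median of 59879 in Wt LFD, 61991 in HetKO LFD, 46741 in HetKO HFD and 23897 in Wt HFD mice, and a perivenous median of 35420, 36524, 22944 and 11300 in the same order. Every hepatocyte marker was above the LOQ in every AOI, and in all 4 groups the summed markers of perivenous hepatocytes were higher in the AOIs of their own zone. A smaller share of hepatocytes in an AOI and less RNA of a gene per hepatocyte cannot be told apart in these data. Gaa, the targeted gene, averaged 73.4 ± 5.38 (SD, n = 4) periportally in Wt LFD and 50.5 ± 7.38 in HetKO LFD mice, and 48.9 ± 7.99 in Wt HFD and 42.6 ± 10.8 in HetKO HFD mice. Where its probe lies relative to the inserted LoxP sites is not given in the sources used here.

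Bcl6 lies on chromosome 16 (chr16:23965050-23988866 in GRCm38.p6), Car3 on chromosome 3 (chr3:14863538-14872381), Mup13 on chromosome 4 (chr4:61224308-61228252), Slco1a1 on chromosome 6 (chr6:141907281-141946962), Igf1 on chromosome 10 (chr10:87858265-87937047) and Egfr on chromosome 11 (chr11:16752203-16913907), all as protein-coding genes of RefSeq. Because Bcl6 and STAT5 are known to meet at the same DNA element, the 250 bases upstream of the annotated starts of the members were searched for the spaced palindrome TTCNNNGAA, which reads the same on both strands, and for its variant with a spacer longer by 1 base. RefSeq windows were at hand for 4 of the 6 genes, 5 windows in all, since Bcl6 has a pair of annotated starts. Both Bcl6 windows held the palindrome, shown in capitals, 5′ to 3′ on the minus strand on which the gene lies. The first is chr16:23988853-23989102 and the second chr16:23981284-23981533.
Bcl6 start 1: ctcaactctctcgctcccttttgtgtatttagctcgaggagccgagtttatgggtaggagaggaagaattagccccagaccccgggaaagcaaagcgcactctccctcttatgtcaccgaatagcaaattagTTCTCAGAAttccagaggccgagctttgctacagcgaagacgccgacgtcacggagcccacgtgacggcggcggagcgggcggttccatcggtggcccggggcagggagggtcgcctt
Bcl6 start 2: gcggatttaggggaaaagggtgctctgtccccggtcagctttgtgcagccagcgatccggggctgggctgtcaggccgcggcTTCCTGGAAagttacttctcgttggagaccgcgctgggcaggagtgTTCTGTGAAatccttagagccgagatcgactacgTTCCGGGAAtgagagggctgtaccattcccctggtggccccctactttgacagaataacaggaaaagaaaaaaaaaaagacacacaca
The first window held 1 match, TTCTCAGAA, which began 118 bases before the start. The second held 3 matches, TTCCTGGAA, TTCTGTGAA and TTCCGGGAA, which began 168, 122 and 88 bases before the start. The windows of Slco1a1, Igf1 and Egfr held no match, and none of the 5 windows held the variant with the longer spacer. Of 32851 RefSeq windows of this length, 2306 (7.0%) held TTCNNNGAA and 5.9% held the variant, so a match is not rare. A match describes letters in a window and does not show that a factor binds there.

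Bcl6 was the least often detected of the 6, being above the LOQ in 28 of 96 AOIs. Wt LFD mice had 9 of 12 AOIs above it in each zone and the other groups 0 to 5 of 12, and it entered the tests because a gene needed only 10 AOIs of 96. Bcl6 averaged 3.29 times the negative probe periportally and 3.34 times perivenously in Wt LFD mice. In HetKO LFD mice the ratio was 1.42 and 1.58, in HetKO HFD mice 1.31 and 1.21, and in Wt HFD mice 1.12 and 0.926. Outside Wt LFD, Bcl6 values thus lay close to the level of the negative probe, and folds against those groups carry that background in them. Across the 3 AOIs of a mouse and zone the median coefficient of variation was 26.9% for Bcl6 and between 8.88% and 14.7% for the other 5 genes. Mup13 was above the LOQ in all 96 AOIs, Car3 in 94, Igf1 in 92, Slco1a1 in 73 and Egfr in 65.

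**Figure D1:**
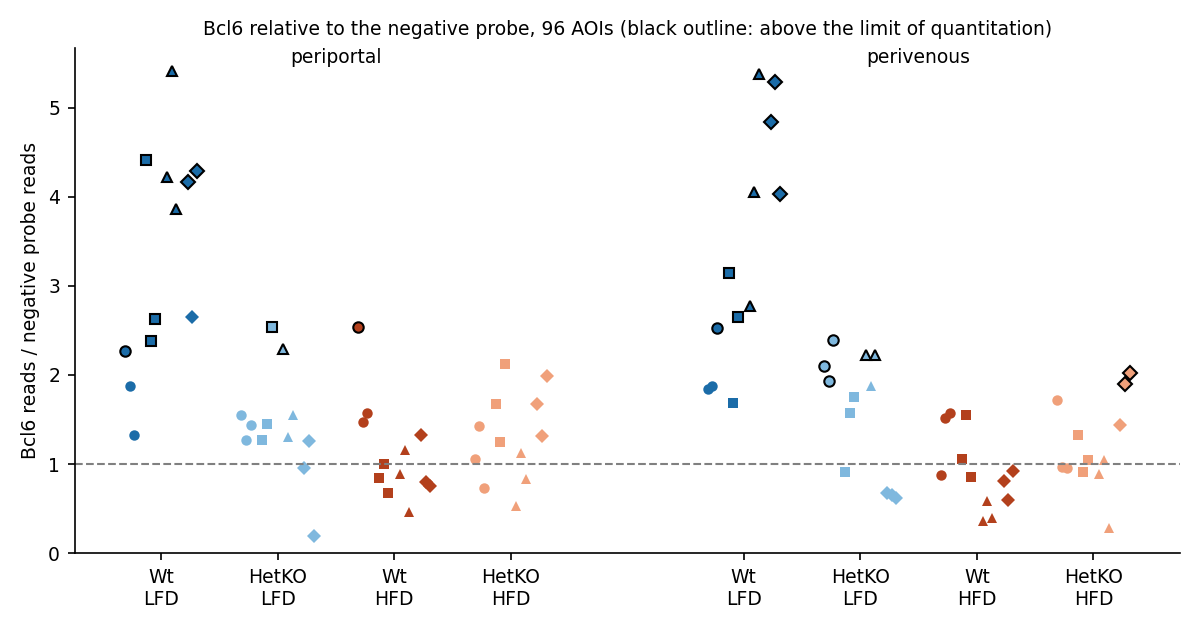
Reads of Bcl6 divided by those of the negative control probe (vertical axis), each symbol an AOI, in the 4 groups and both zones, with a dashed line at a ratio of 1 and a black outline where Bcl6 was above the LOQ. Group means were 3.29 and 3.34 in Wt LFD mice and between 0.926 and 1.58 in the other groups.

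In Wt LFD mice 1 to 4, periportal Bcl6 was 40.2, 55.5, 54.1 and 50.9, and perivenous Bcl6 was 51.1, 53.6, 64.7 and 67.5. In HetKO LFD mice it was 25.8, 37.8, 31.5 and 13.6 periportally and 41.6, 32.4, 34.5 and 12.4 perivenously. Every HetKO LFD mouse was thus below every Wt LFD mouse in the same zone, and HetKO LFD mouse 4 was the lowest of its group in both. In Wt HFD mice Bcl6 was 39.3, 26.8, 24.3 and 34.8 periportally and 27.2, 36.5, 14.1 and 30.4 perivenously. In HetKO HFD mice it was 22.3, 36.9, 21 and 42.9 periportally and 28.2, 28.6, 19.2 and 48.8 perivenously. Wt HFD mice were likewise below every Wt LFD mouse in both zones, while the HetKO mice on either diet spanned a common range.

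Mean Bcl6 was 50.2 ± 6.95 (SD, n = 4 mice) periportally and 59.2 ± 8.09 perivenously in Wt LFD mice, 27.2 ± 10.3 and 30.2 ± 12.5 for HetKO LFD, 31.3 ± 6.95 and 27 ± 9.49 for Wt HFD, and 30.8 ± 10.8 and 31.2 ± 12.5 for HetKO HFD mice. On the log2(value + 1) scale, which also holds for the differences below and understates the change of low values, HetKO mice were at -1.03 periportally and -1.05 perivenously relative to Wt mice on LFD. Wt mice on HFD were at -0.70 and -1.18 relative to Wt mice on LFD. These 4 differences share the Wt LFD mice, and the comparisons they come from chose the members. Bcl6 is also transcribed in immune cells. The summed level of 9 Kupffer cell and macrophage markers ranged from 482 to 650.2 in Wt LFD and from 505 to 714 in HetKO LFD mice periportally, and from 333 to 482 and from 408 to 496 perivenously. In Wt HFD mice it ranged from 390.1 to 728 periportally and from 411 to 604 perivenously. Of 108 pairs of marker and AOI in Wt HFD mice, only 26 periportally and 20 perivenously were above the LOQ. In Wt LFD mice 80 and 65 were above it, and in HetKO LFD mice 86 in each zone. Most macrophage marker values of Wt HFD mice were thus below the LOQ. Of 16 lymphocyte markers none was among the genes analysed, so the part of lymphocytes in Bcl6 was not tested.

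Mup13, a major urinary protein that carries pheromones, belongs to a family of near-identical genes, and it was the only Mup in the table, so that signal from other Mup transcripts on its probe cannot be told apart. In Wt LFD mice 1 to 4, Mup13 was 2073, 14514, 7197 and 4492 periportally and 9174, 42648, 26834 and 25118 perivenously. On HFD the Wt mice had 513, 609.6, 249 and 1395 periportally and 3949.5, 1669, 2845 and 3624 perivenously. No Wt HFD mouse reached the lowest Wt LFD mouse in its zone. In HetKO LFD mice Mup13 was 29386, 3629.9, 19733 and 2250.4 periportally and 63505, 14445, 54371 and 8900.1 perivenously. In HetKO HFD mice it was 485, 966, 1049 and 4847 periportally and 3468, 5072, 2837 and 13802 perivenously. HetKO HFD mouse 4 was the highest of its group in both zones and overlapped the LFD range. HetKO LFD mice 2 and 4 were well below mice 1 and 3 of their group.

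Slco1a1, a male-biased transporter of organic anions, was 113, 176, 189 and 227 periportally and 261, 325, 412 and 490.3 perivenously in Wt LFD mice 1 to 4. On HFD the Wt mice had 25.3, 42.2, 44.7 and 55.3 periportally and 56.6, 100.1, 91.8 and 92.6 perivenously. The ranges did not overlap in either zone. Slco1a1 was 251, 152, 163 and 83.3 periportally and 459, 263, 417 and 217 perivenously in HetKO LFD mice. It was 32.3, 58.3, 40.5 and 106 periportally and 86.7, 132, 73.8 and 243 perivenously in HetKO HFD mice. As with Mup13, HetKO HFD mouse 4 was the highest of its group in both zones, and no other mouse of that group overlapped the LFD mice. In Wt HFD mice Slco1a1 was above the LOQ in 1 of 12 periportal and 8 of 12 perivenous AOIs, so its periportal level there is close to background.

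Egfr, the epidermal growth factor receptor, whose level in liver is raised by growth hormone, was 129, 158, 242 and 204 periportally and 78.9, 139, 177 and 107 perivenously in Wt LFD mice. On HFD the Wt mice had 54.7, 52.7, 70.2 and 50.1 periportally and 42.2, 33.9, 48.2 and 50.9 perivenously. The Wt groups did not overlap. In HetKO LFD mice Egfr was 385, 137, 256 and 126 periportally and 277, 79.1, 276 and 56.2 perivenously. In HetKO HFD mice it was 43.5, 72, 55.9 and 94.6 periportally and 42.7, 43.4, 33.4 and 76.9 perivenously. HetKO LFD mice 1 and 3 were high and mice 2 and 4 low in both zones, the split seen for Mup13, and HetKO HFD mouse 4 overlapped the LFD mice perivenously. Egfr was above the LOQ in all 12 AOIs of each zone in both LFD groups, but in 4 periportal and 0 perivenous AOIs of 12 in Wt HFD and in 9 and 4 in HetKO HFD mice.

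Igf1, the circulating growth factor through which much of growth hormone's effect on body growth passes, was 212, 344, 323 and 385 periportally and 114, 152, 134 and 195 perivenously in Wt LFD mice. On HFD the Wt mice had 208, 141, 152 and 106 periportally and 97.2, 80.7, 55.5 and 67.7 perivenously. The highest Wt HFD mouse, mouse 1, was just below the lowest Wt LFD mouse periportally, and the ranges did not overlap in either zone. Igf1 was 348, 245, 411 and 327 periportally and 231, 133, 252 and 156 perivenously in HetKO LFD mice. It was 242, 204, 214 and 167 periportally and 116, 109.5, 119 and 117 perivenously in HetKO HFD mice, without overlap with the LFD mice in either zone.

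Car3, a cytosolic carbonic anhydrase that is abundant in male liver, was 491, 382, 672 and 583 periportally and 1119, 1136, 1909 and 1862 perivenously in Wt LFD mice. In Wt HFD mice it was 469, 166, 207 and 72.1 periportally and 873, 306, 365 and 158 perivenously. Wt HFD mouse 1, the mouse with the lowest background of its group, had the highest Car3 in both zones and overlapped the LFD mice periportally. Car3 was 530.2, 624, 293 and 927 periportally and 1243, 1629.6, 977 and 1608 perivenously in HetKO LFD mice. In HetKO HFD mice it was 452, 455, 447 and 240.2 periportally and 829, 876, 776 and 922 perivenously. The HetKO groups overlapped periportally and did not overlap perivenously.

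**Figure D2:**
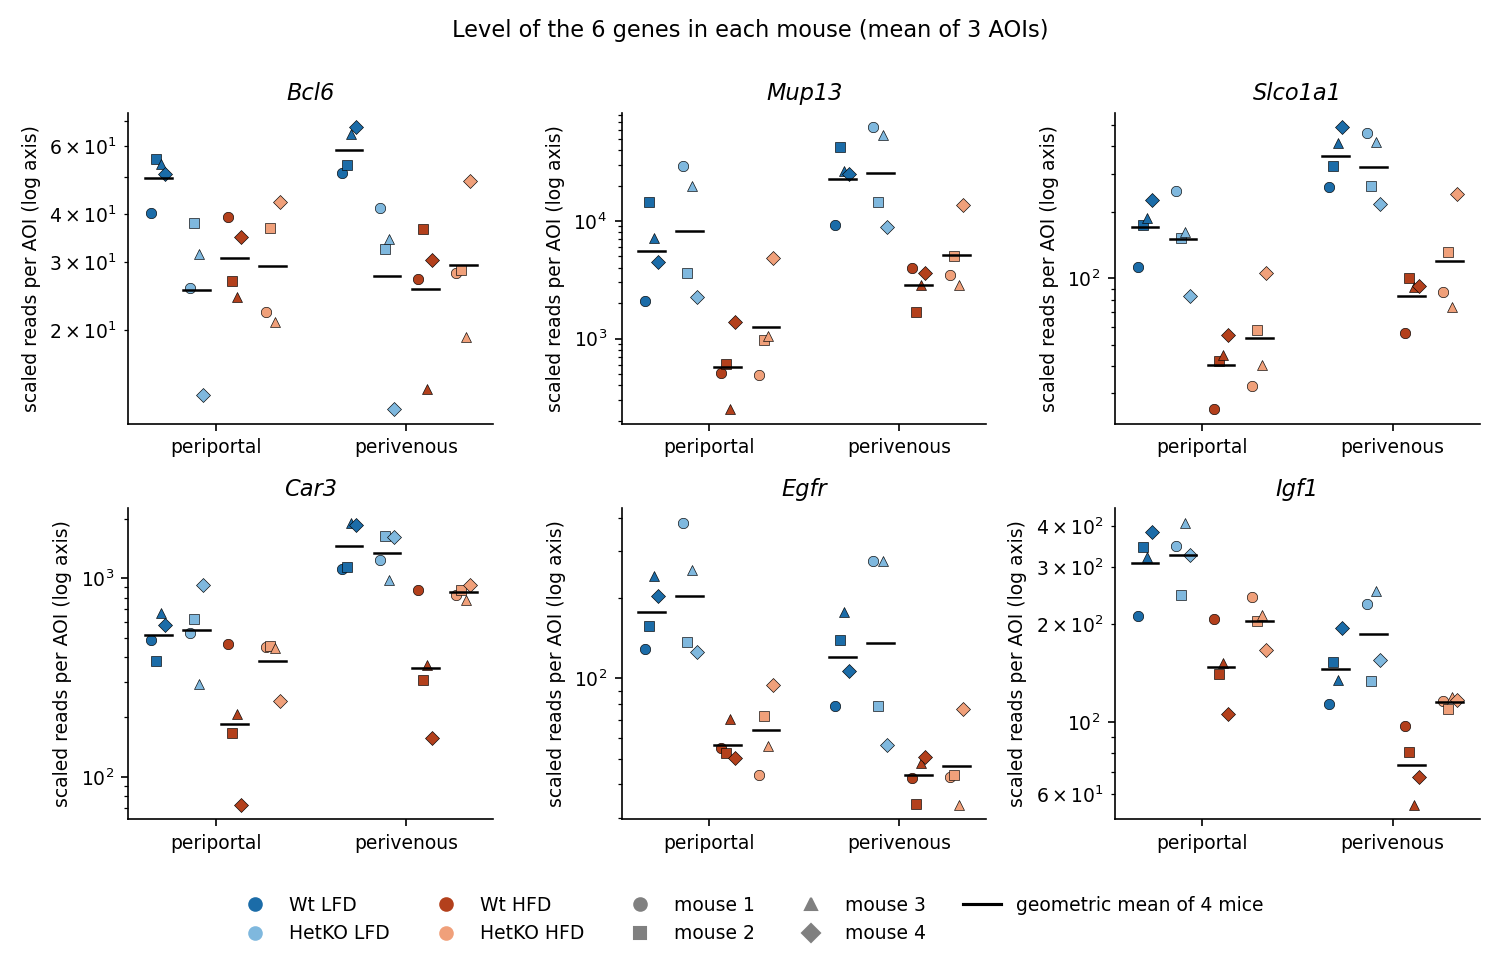
Scaled gene abundance of the 6 genes (log axis), each symbol a mouse and each black line the geometric mean of 4 mice, in both zones. Mup13, Slco1a1 and Egfr are lower on HFD in Wt mice without overlap, whereas Bcl6 is high in Wt LFD mice and spans a common range in the other 3 groups.

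The comparison of HFD with LFD in Wt mice, from which 5 of the genes were taken, gave log2 differences of -3.29 for Mup13, -2.11 for Slco1a1, -1.65 for Egfr, -1.5 for Car3, -1.07 for Igf1 and -0.70 for Bcl6 periportally. Perivenously they were -3.00 for Mup13, -2.20 for Slco1a1, -2.05 for Car3, -1.44 for Egfr, -1.18 for Bcl6 and -0.97 for Igf1. With limma and Benjamini-Hochberg adjustment over the 6805 genes tested, 6 of 6 members were below an adjusted p of 0.05 and lower on HFD in each zone, as the choice of members made likely, against 12.7% of all genes lower and 15.4% higher periportally and 12.3% lower and 10.2% higher perivenously. The 2 Wt groups did not overlap for 5 of the 6 genes periportally, where 21.2% of all genes did not overlap, and for all 6 perivenously, where 19.4% did not. Nothing is read from these counts. Without Wt HFD mouse 1 the differences were -3.23 for Mup13, -1.96 for Car3, -1.90 for Slco1a1, -1.64 for Egfr, -1.24 for Igf1 and -0.81 for Bcl6 periportally. Perivenously they were then -3.16 for Mup13, -2.48 for Car3, -1.99 for Slco1a1, -1.43 for Egfr, -1.20 for Bcl6 and -1.10 for Igf1.

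The same diets were compared in HetKO mice on the same slides. For Mup13, Slco1a1, Egfr, Igf1 and Car3 these are other animals than those that chose them, whereas the HetKO LFD mice took part in the choice of Bcl6. Mup13, Slco1a1, Egfr and Igf1 were lower on HFD in both zones and Car3 in the perivenous zone. Periportally Mup13 fell by 2.74 on the log2 scale (95% CI -4.23 to -1.24, limma adjusted p = 0.0297), Egfr by 1.68 (-2.30 to -1.05, adjusted p = 0.01), Slco1a1 by 1.5 (-2.18 to -0.81, adjusted p = 0.019) and Igf1 by 0.68 (-1.03 to -0.33, adjusted p = 0.0241). The periportal difference of Car3 was -0.51 (-1.10 to 0.07, adjusted p = 0.247). Perivenously Mup13 fell by 2.33 (-3.54 to -1.13, adjusted p = 0.0125), Egfr by 1.53 (-2.44 to -0.61, adjusted p = 0.0232), Slco1a1 by 1.43 (-2.10 to -0.76, adjusted p = 0.00889), Igf1 by 0.69 (-1.06 to -0.32, adjusted p = 0.0153) and Car3 by 0.66 (-0.99 to -0.33, adjusted p = 0.0115).

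For Bcl6 the difference in HetKO mice, a description with no test, was 0.27 periportally and 0.04 perivenously. Both HetKO groups sat near the negative probe, as given above, so the range over which a lower Bcl6 could be measured was narrow in them.

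Thus 4 members were lower periportally, against 5.19% of all genes lower and 3.63% higher, and 5 perivenously, against 9.74% lower and 12.4% higher. The groups did not overlap for Egfr and Igf1 periportally, where 15.1% of all genes did not overlap, and for Car3 and Igf1 perivenously, where 22.5% did not. The periportal count depended on single mice: it was 1 (Egfr) without HetKO LFD mouse 1 and 1 without HetKO HFD mouse 3, and 2 without HetKO LFD mouse 3 or HetKO HFD mouse 2. The perivenous count was 3 without HetKO LFD mouse 1, when Egfr (adjusted p = 0.0645) and Igf1 (adjusted p = 0.0506) no longer passed. The counts also depended on the settings, being 0 periportally and 3 perivenously with the negative probe subtracted, 1 and 0 with all groups in one fit, and 0 perivenously with scaling by nuclei. All AOIs of HetKO LFD mouse 1 but 1 carry another code in their library name than the rest. The sequencing saturation of this mouse averaged 75.3% periportally and 66.6% perivenously, against 89.27% to 90.86% in the other mice. It had the highest Mup13, Slco1a1 and Egfr of its group periportally. The part of the library code and of saturation was not tested.

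**Figure D3:**
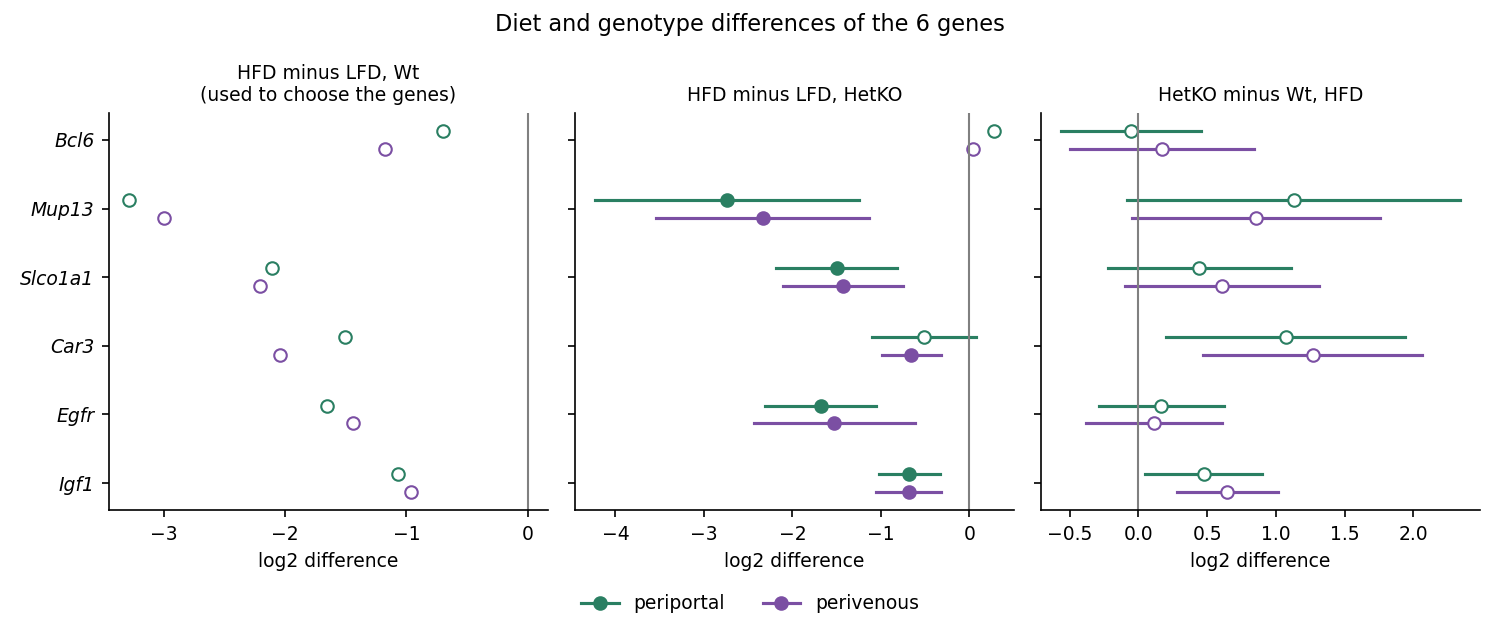
Differences of each gene on the log2(value + 1) scale (horizontal axis) in both zones, HFD minus LFD in Wt and in HetKO mice and HetKO minus Wt on HFD. Lines are 95% confidence intervals and filled circles are below an adjusted p of 0.05 (limma). The diet differences of all genes in Wt mice and of Bcl6 in HetKO mice have an open circle and no line. Differences between genotypes on HFD keep their lines, although the Wt HFD mice took part in choosing the members other than Bcl6. Bcl6 is at -0.70 and -1.18 in Wt and at 0.27 and 0.04 in HetKO mice.

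Markers of hepatocytes moved with the diet as well. Of 10 hepatocyte markers 7 were lower on HFD periportally and 9 perivenously in HetKO mice, with medians of -0.67 and -0.87, and 8 and 9 in Wt mice, with medians of -1.34 and -1.5. The median of all genes tested was 0.02 and 0.05 in HetKO mice and 0.11 and 0.09 in Wt mice. Relative to the mean log2 of these 10 markers, a setting added after the data were seen, Mup13 was lower on HFD in HetKO mice. It was at -2.01 periportally (limma adjusted p = 0.000191) and -1.40 perivenously (adjusted p = 3.8e-05). Slco1a1 (-0.77, adjusted p = 0.0105) and Egfr (-0.95, adjusted p = 0.00115) were lower relative to the markers periportally only. Igf1 and Car3 did not pass. This setting moves the median of all genes to 0.75 periportally and 0.99 perivenously in HetKO mice. Bcl6, as a description, was at 1.00 and 0.98. The share of all genes lower under this setting is not given here, and the cause of the differences was not tested.

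The Wt mice relative to the same markers, again as a description, had Mup13 at -1.96 periportally and -1.53 perivenously, Slco1a1 at -0.78 and -0.74, Car3 at -0.18 and -0.58, Egfr at -0.33 and 0.03, Igf1 at 0.26 and 0.50 and Bcl6 at 0.63 and 0.29. The median of all genes was at 1.43 and 1.56 on this scale. Of the 6 genes Mup13 was the lowest relative to the markers in each of the 4 diet comparisons.

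Whether the diet difference itself differed between genotypes was tested across the 4 groups of a zone. These values share the Wt mice with the comparisons that chose the members and, for Bcl6, also the HetKO LFD mice, so the members' values are a description. No gene of 6805 passed in either zone (0% with limma, 732 genes periportally and 395 perivenously at an unadjusted p under 0.05, and 0 in both zones with edgeR or DESeq2). For Bcl6 the diet difference was greater by 0.97 in HetKO than in Wt mice periportally and by 1.22 perivenously. For Car3 it was greater by 0.99 and by 1.39, and perivenously by 1.83 without Wt HFD mouse 1. For Mup13, Slco1a1, Egfr and Igf1 the difference lay between -0.09 and 0.78.

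Comparing genotypes on HFD, which shares the Wt HFD mice with the choice of members, again gave 0% of genes with limma in both zones, with 992 periportally and 1019 perivenously at an unadjusted p under 0.05, none with edgeR and 17 in each zone with DESeq2 on recovered reads, none of them a member. As the members other than Bcl6 were chosen for a difference of these same Wt HFD mice, a higher value in HetKO HFD mice is favoured by the choice. Car3 averaged 398 ± 106 periportally in HetKO HFD and 229 ± 170.1 in Wt HFD mice, and 851 ± 62.8 and 426 ± 311 perivenously. Its log2 difference was 1.07 (0.20 to 1.94, adjusted p = 0.251) and 1.27 (0.47 to 2.07, adjusted p = 0.25). Igf1 averaged 207 ± 31.2 and 152 ± 42.4 periportally and 116 ± 4.2 and 75.3 ± 17.9 perivenously, a difference of 0.47 (0.05 to 0.90, adjusted p = 0.296) and 0.65 (0.28 to 1.01, adjusted p = 0.25). Mup13 was at 1.13 (-0.08 to 2.34, adjusted p = 0.371) and 0.86 (-0.05 to 1.76, adjusted p = 0.354).

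The values of Bcl6 on HFD gave -0.05 periportally (-0.56 to 0.45, adjusted p = 0.934) and 0.17 perivenously (-0.50 to 0.84, adjusted p = 0.838) for HetKO against Wt mice. The groups did not overlap for 0 members periportally, where 4.41% of all genes did not, and for Igf1 perivenously, where 5.26% did not. Wt HFD mouse 1, which had the highest Car3 and Igf1 of its group in both zones, weighed on the result. Without it Car3 was at 1.52 periportally and 1.70 perivenously, and Igf1 at 0.64 and 0.78. Of all 6805 genes, 1302 periportally and 1443 perivenously then passed. As Car3 and Igf1 were chosen on these Wt HFD mice, their values without mouse 1 are a description. The 3 Wt HFD mice that remain have the highest background of the series, between 29.3 and 38.9 in scaled units.

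Between genotypes on LFD, the comparison that chose Bcl6, no gene passed (0% in both zones, 222 genes periportally and 95 perivenously at an unadjusted p under 0.05, and 0 with edgeR). DESeq2 on recovered reads called 1 gene periportally, Bcl6, which this comparison chose, so that nothing is read from the call, and 0 perivenously. The 2 groups did not overlap for Bcl6 alone among the 6 in either zone, where 2.03% and 1.37% of all genes did not. The other 5 genes lay between -0.17 and 0.58. The highest of these was Mup13, at 0.58 periportally and 0.19 perivenously, and its LFD groups overlapped.

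The zones of the same liver were compared with the mouse as a block, a comparison that played no part in the choice of members. Mup13, Slco1a1 and Car3 were higher in the perivenous zone in all 4 groups, Igf1 was lower there in all 4, and Egfr was lower in the LFD groups. Mup13 was higher by 2.03 for Wt LFD (1.69 to 2.36, limma adjusted p = 2.1e-07), 2.31 for Wt HFD (1.72 to 2.90, adjusted p = 0.00018), 1.64 for HetKO LFD (1.34 to 1.94, adjusted p = 3.44e-06) and 2.04 for HetKO HFD mice (1.67 to 2.41, adjusted p = 6.09e-08). Slco1a1 was higher by 1.09, 0.99, 1.09 and 1.16 in the same order, with adjusted p between 1.18e-06 and 0.000419. Car3 was higher by 1.49, 0.94, 1.28 and 1.14, with adjusted p between 1.84e-06 and 0.000443.

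In the other direction, Igf1 was at -1.09, -0.99, -0.81 and -0.82 in the same order, with adjusted p between 4.72e-05 and 0.00131. Egfr was at -0.59 in Wt LFD (adjusted p = 0.0235) and -0.58 in HetKO LFD mice (adjusted p = 0.0414), and at -0.37 (adjusted p = 0.329) and -0.43 (adjusted p = 0.0766) in Wt HFD and HetKO HFD mice. The calls of Egfr depended on single mice. In Wt LFD its value did not pass without mouse 1 or mouse 4, and in HetKO LFD not without mouse 1, 2 or 4. The hepatocyte markers were lower perivenously as well. Of 10, 7 passed for Wt LFD, 8 for Wt HFD, 6 for HetKO LFD and 8 for HetKO HFD, with medians of -0.56, -0.79, -0.54 and -0.97 beside medians between -0.01 and 0.03 over all genes. Their part in the differences of Igf1 and Egfr was not tested.

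Bcl6 did not pass in any group, at 0.24 for Wt LFD (-0.06 to 0.53, adjusted p = 0.453), -0.25 for Wt HFD (-0.60 to 0.11, adjusted p = 0.659), 0.21 for HetKO LFD (-0.06 to 0.48, adjusted p = 0.432) and -0.02 for HetKO HFD mice (-0.29 to 0.25, adjusted p = 0.967). In single mice the perivenous minus periportal difference of Mup13 ranged from 1.11 to 3.50 (highest in Wt HFD), that of Slco1a1 from 0.73 to 1.44, that of Car3 from 0.79 to 1.93 and that of Igf1 from -1.45 to -0.51, each with the same sign in 16 of 16 mice. Egfr was lower perivenously in 13 of 16 mice. Bcl6 was higher in 9 mice and lower in 7.

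Members called higher in the perivenous zone numbered 3 in every group, against a background of 2.65% of all genes (LFD) and 0.705% (HFD) for Wt mice and 3.63% (LFD) and 2.54% (HFD) for HetKO mice. Members called lower numbered 2 with LFD in Wt mice (background 2.84%), 1 with HFD in Wt (1.19%), 2 with LFD in HetKO (3.34%) and 1 with HFD in HetKO mice (2.29%). These calls depended on the settings. With the negative probe subtracted only Slco1a1 passed for Wt HFD and only Mup13 for HetKO HFD. With scaling by nuclei Mup13 and Car3 passed for Wt LFD and Mup13 alone for Wt HFD and for HetKO LFD. The median of all genes under this scaling was 0.41 for Wt LFD, 0.36 for Wt HFD and 0.003 for HetKO LFD. For HetKO HFD it was 0.73, with 5441 of 6805 genes called, and the value of Egfr was 0.27. Without the mouse as a block 0 members passed for Wt HFD and Car3 alone for HetKO LFD. The signs of Mup13, Slco1a1, Car3 and Igf1 were the same in all 4 groups with the negative probe subtracted and with scaling by nuclei. Leaving out the block cannot change a sign, since every mouse has both zones. Without Wt HFD mouse 1, Mup13 (2.10, adjusted p = 0.00221), Slco1a1 (1.00, adjusted p = 0.00262), Car3 (0.96, adjusted p = 0.00279) and Igf1 (-0.95, adjusted p = 0.0109) still passed in that group. In the test of whether the diet difference itself differed between zones, no member passed, in Wt mice (0.441% of all genes passed) or in HetKO mice (0.0294%). Among the members Car3 in Wt mice had the smallest p, at -0.54 (perivenous minus periportal diet difference, 95% CI -0.93 to -0.16, adjusted p = 0.348), and at -0.53 without Wt HFD mouse 1 (adjusted p = 0.457).

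**Figure D4:**
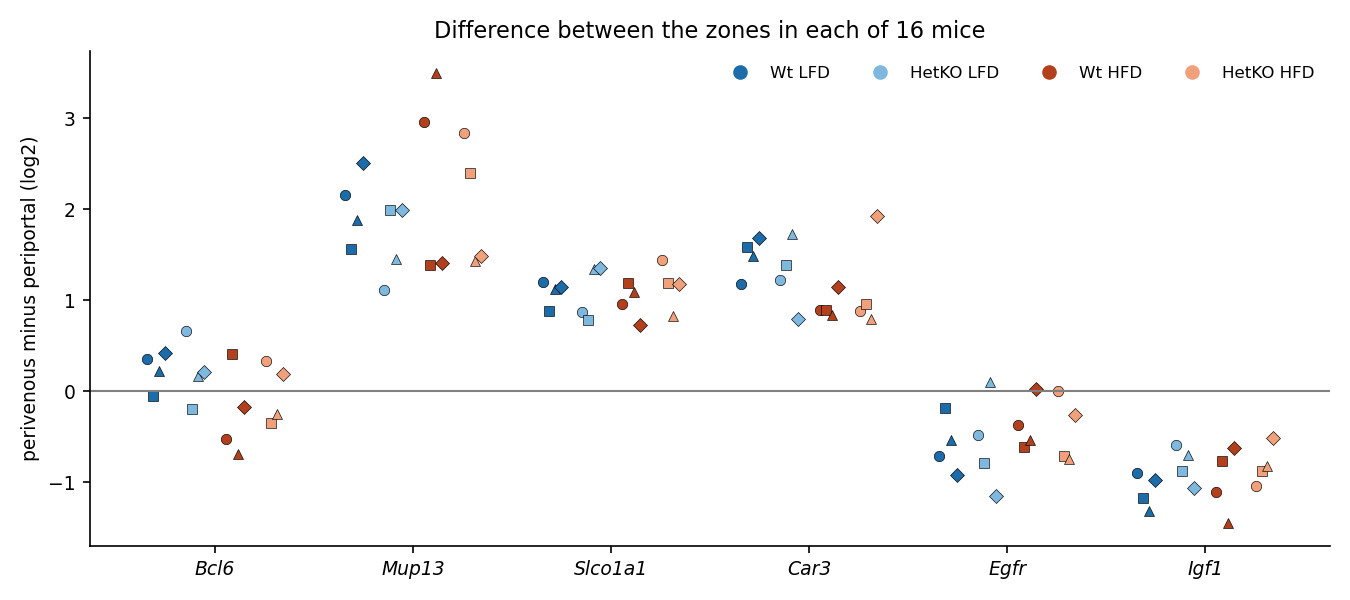
Perivenous minus periportal difference on the log2(value + 1) scale, each symbol a mouse. Mup13, Slco1a1 and Car3 lie above 0 and Igf1 below 0 in 16 of 16 mice, Egfr is below 0 in 13 of 16, and Bcl6 falls on both sides.

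The genes around the receptor were counted from lists drawn up with earlier results of these data known. Their counts stand beside those over all genes tested, of which 12.7% were lower and 15.4% higher on HFD periportally and 12.3% and 10.2% perivenously in Wt mice, and 5.19% and 3.63% periportally and 9.74% and 12.4% perivenously in HetKO mice. Of 9 genes of growth hormone receptor signalling, Ghr, the receptor itself, was lower on HFD in Wt mice (-0.98 periportally, limma adjusted p = 0.0156, and -1.29 perivenously, adjusted p = 0.0113) and in HetKO mice perivenously (-0.46, adjusted p = 0.0225). Ghr was above the LOQ in all 96 AOIs and averaged 303 ± 34.8 periportally in Wt LFD and 163 ± 71.6 in Wt HFD mice. Periportally in Wt mice the STAT5a gene Stat5a (0.79, adjusted p = 0.011), the feedback inhibitor Cish (0.83, adjusted p = 0.0111) and the kinase Jak2 (0.73, adjusted p = 0.0191) were higher on HFD, and perivenously Cish alone (0.87, adjusted p = 0.0115). These 3 genes were near background: Jak2 was above the LOQ in 18 AOIs, Cish in 24 and Stat5a in 37, and the negative probe itself was higher in Wt HFD than in Wt LFD mice. Stat5b, the main STAT5 of liver, was at -0.03 periportally (adjusted p = 0.917) and -0.25 perivenously (adjusted p = 0.324) in Wt mice. In HetKO mice 0 of the 9 passed periportally. The list medians were 0.17 and 0.20 in Wt and -0.07 and 0.09 in HetKO mice.

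In the IGF1 axis, 9 genes with Igf1 among them, 4 were lower and 1 higher on HFD periportally and 6 lower perivenously in Wt mice, and 3 and 4 lower in HetKO mice. The binding protein Igfbp4 was lower in all 4 comparisons (-1.20 and -1.56 in Wt, -0.72 and -0.78 in HetKO mice, with adjusted p between 0.00416 and 0.0241). Igfbp2, another binding protein, was lower in 3 of them (-1.31 and -1.09 in Wt and -0.90 perivenously in HetKO mice) and was at -0.58 periportally in HetKO mice (adjusted p = 0.169). Igfbp1 was lower in HetKO mice in both zones (-0.85, adjusted p = 0.0415, and -1.05, adjusted p = 0.00605) and perivenously in Wt mice (-0.66, adjusted p = 0.0241). Among 5 genes around the EGF receptor, Errfi1, an inhibitor of its kinase, was lower with Egfr in Wt mice (-1.39 periportally, adjusted p = 0.00444, and -1.38 perivenously, adjusted p = 0.00973) and perivenously in HetKO mice (-0.79, adjusted p = 0.00944). Erbb3, a related receptor, was at -0.57 periportally in Wt mice (adjusted p = 0.0402) and -0.48 perivenously in HetKO mice (adjusted p = 0.0125).

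Of 20 male-biased genes that growth hormone controls, Mup13 and Slco1a1 among them, 12 were lower and 2 higher on HFD periportally and 14 lower and 1 higher perivenously in Wt mice, with medians of -0.77 and -1.19. In HetKO mice 6 were lower and 1 higher periportally, with a median of -0.65, and 9 were lower and 1 higher perivenously, with a median of -0.96. Serpina3k, a secreted protease inhibitor, was lower in all 4 comparisons (-2.39 and -2.38 in Wt and -1.36 and -1.42 in HetKO mice). Hsd3b5, a steroid dehydrogenase confined largely to male liver, was lower perivenously in Wt mice (-1.84, adjusted p = 0.0013) and was at -1.02 perivenously in HetKO mice (adjusted p = 0.105). Of 15 female-biased genes, of which Bcl6 is known to repress several, 3 were higher and 2 lower periportally and 1 higher and 2 lower perivenously in Wt mice, and 1 and 3 were higher and none lower in HetKO mice. These few calls lie near the shares over all genes, and nothing is read from them. Cyp3a41a, a female-biased cytochrome, was at 1.03 periportally in Wt mice (adjusted p = 0.00832) but was above the LOQ in 20 AOIs of 96. Cd36, a fatty acid transporter, was at 0.78 (adjusted p = 0.0359).

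Of 14 regulators of sex-biased genes, among them Bcl6, which was chosen on these data and is counted as lower in both zones of Wt mice, 4 were lower on HFD periportally and 5 perivenously in Wt mice, and 1 and 4 in HetKO mice, with none higher. Nr1i3, a nuclear receptor for foreign compounds, was at -1.84 perivenously in Wt mice (adjusted p = 0.00721) and 0.01 in HetKO mice (adjusted p = 0.971). In the perivenous test of diet by genotype Nr1i3 had the smallest p of all genes and did not pass (limma adjusted p = 0.775). Cebpa, a hepatocyte transcription factor, was lower in all 4 comparisons (-1.37 and -1.33 in Wt and -0.50 and -0.64 in HetKO mice). Of 8 corepressors and kin of Bcl6, none passed in any of the 4 diet comparisons. Of 19 fat oxidation genes under Ppara, 10 were lower and 1 higher periportally and 9 lower perivenously in Wt mice, whereas in HetKO mice 2 were higher and none lower periportally and 1 was higher and 1 lower perivenously. Among other transporters of the Slco family, Slco1b2 was lower in Wt mice (-0.98 and -1.59) and perivenously in HetKO mice (-0.65, adjusted p = 0.014). Slco1a4, Slco2a1 and Slco2b1 did not pass in any of the 4.

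The Wt counts were taken again without Wt HFD mouse 1, an alternative chosen after the data were seen. Over all 6805 genes 1285 were then lower and 1548 higher on HFD periportally and 1306 and 1459 perivenously. Male-biased genes were lower for 13 and higher for 3 periportally and lower for 14 and higher for 2 perivenously. Female-biased genes were higher for 4 and lower for 2 periportally and higher for 5 and lower for 3 perivenously. In the IGF1 axis 5 and 6 were lower, among the regulators 5 and 6, and among the fat oxidation genes 13 and 15. The growth hormone receptor gene Ghr was at -1.24 (limma adjusted p = 0.000261) and -1.53 (adjusted p = 0.000114), and Nr1i3 at -2.25 perivenously (adjusted p = 7.48e-06).

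Whether Bcl6 and the other genes moved together between mice of the same group was examined as deviations from the group mean, 16 mice per zone and 10 relations in all. Periportally Bcl6 had Pearson r = 0.60 (permutation p = 0.0444) and Spearman rho = 0.54 (p = 0.0744) with Mup13, r = 0.63 (p = 0.0476) and rho = 0.44 (p = 0.165) with Slco1a1, and r = 0.46 (p = 0.236) and rho = 0.34 (p = 0.317) with Egfr. Perivenously the values were r = 0.61 (permutation p = 0.0281) and rho = 0.66 (p = 0.0158) for Mup13, r = 0.66 (p = 0.0187) and rho = 0.72 (p = 0.0075) for Slco1a1, and r = 0.61 (p = 0.0206) and rho = 0.56 (p = 0.0443) for Egfr. After Benjamini-Hochberg adjustment over the 10 relations none was below 0.05, the smallest being 0.0937 for r and 0.075 for rho.

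For Igf1 r was -0.06 periportally (permutation p = 0.844, rho = -0.03, p = 0.929) and 0.46 perivenously (p = 0.129, rho = 0.49, p = 0.0878). For Car3 it was -0.31 (permutation p = 0.275, rho = -0.29, p = 0.324) and -0.09 (p = 0.78, rho = -0.08, p = 0.777). The r of Bcl6 with Mup13 and Slco1a1 was thus above 0 in both zones and did not pass after adjustment.

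Leaving out the 2 mice farthest from the median of Bcl6 gave r = 0.50 for Mup13, 0.45 for Slco1a1 and 0.24 for Egfr periportally and 0.56, 0.83 and 0.56 perivenously. Within LFD mice alone (8 mice, also 1 slide) r was 0.54 for Mup13, 0.71 for Slco1a1 and 0.41 for Egfr periportally and 0.72, 0.81 and 0.76 perivenously. Within HFD mice it was 0.70, 0.55 and 0.57 periportally and 0.50, 0.56 and 0.47 perivenously. The sign was thus the same on each slide. The signal over background of a mouse was close to uncorrelated with Bcl6 (r = 0.06 and 0.03) but not with Car3 (r = 0.67 and 0.76) or Igf1 (r = 0.80 and 0.63). With it regressed out, r with Bcl6 was 0.61 for Mup13, 0.66 for Slco1a1 and 0.46 for Egfr periportally. Perivenously r was then 0.62, 0.66 and 0.62. With the negative probe subtracted, r with Bcl6 was 0.44 for Mup13, 0.46 for Slco1a1 and 0.56 for Egfr periportally. In the same order it was 0.75, 0.62 and 0.74 perivenously. Without Wt HFD mouse 1, r with Slco1a1 was 0.78 periportally and 0.73 perivenously and both passed the adjustment. The relations that passed differed with the mouse left out: Mup13 (0.75) and Egfr (0.70) perivenously without Wt HFD mouse 2, Slco1a1 (0.83) and Egfr (0.74) perivenously without Wt HFD mouse 3, and Mup13 (0.81) periportally without HetKO LFD mouse 2. Without HetKO LFD mouse 4, which had the lowest Bcl6 of its group, r fell to 0.44 for Mup13, 0.46 for Slco1a1 and 0.21 for Egfr periportally and to 0.44, 0.60 and 0.38 perivenously. Without HetKO LFD mouse 1, whose saturation was low, r was 0.63, 0.65 and 0.52 periportally and 0.55, 0.62 and 0.55 perivenously in that order. The unadjusted permutation p was then 0.0966, 0.0479 and 0.137 perivenously. Without HetKO HFD mouse 4, r was 0.52, 0.54 and 0.37 periportally and 0.51, 0.54 and 0.55 perivenously. The other 5 genes paired with each other at r between -0.61 and 0.77 periportally (median 0.16) and between -0.24 and 0.92 perivenously (median 0.38).

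**Figure D5:**
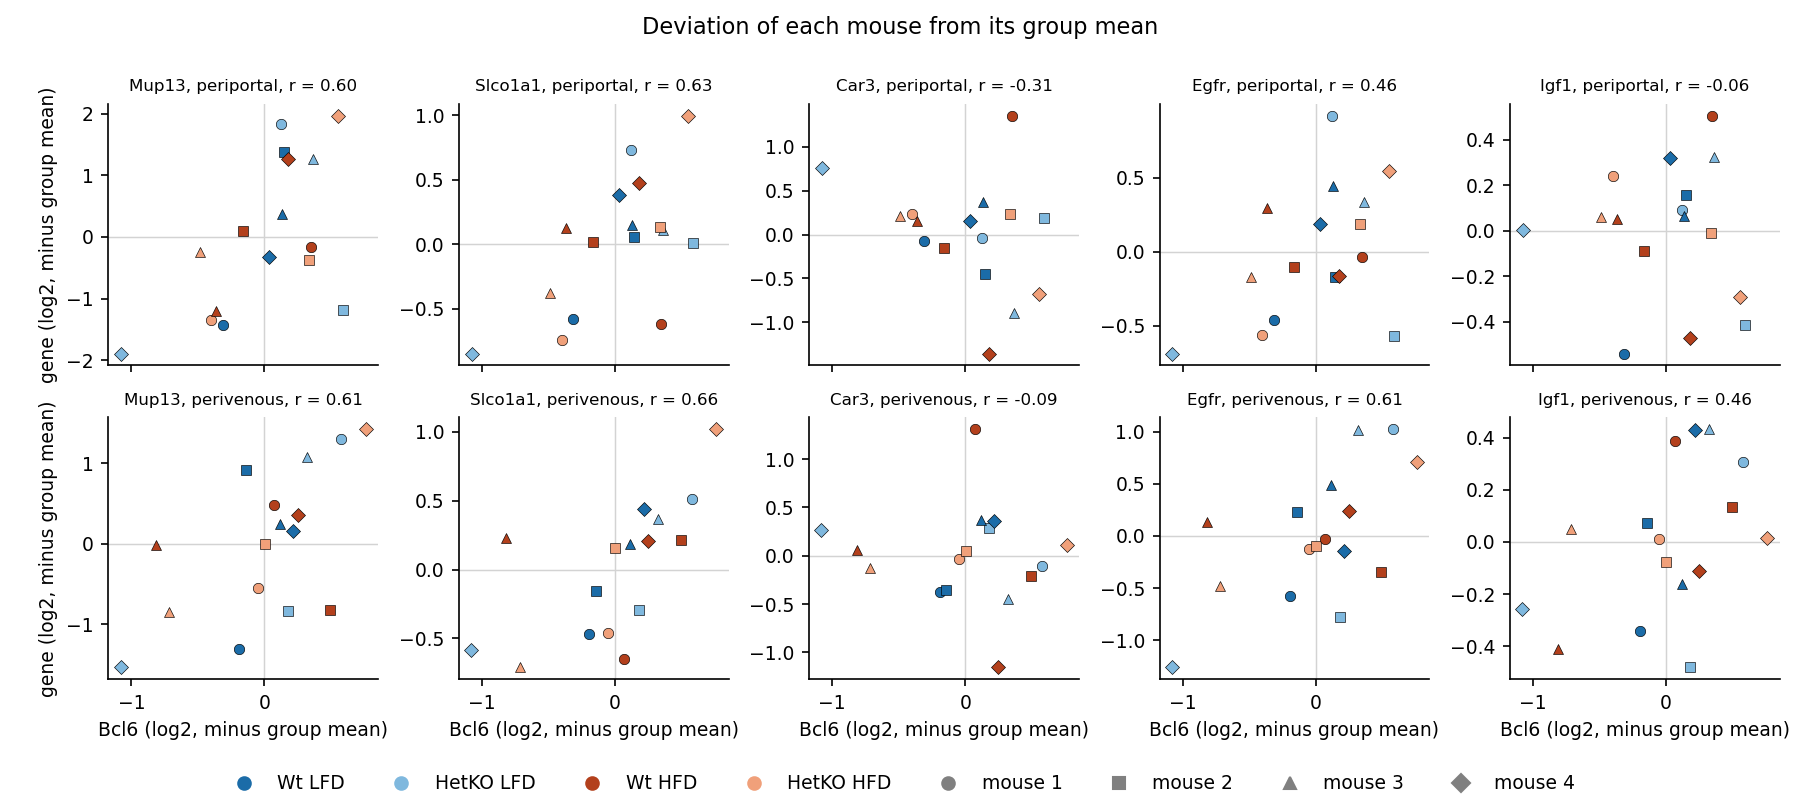
Deviation of Bcl6 from its group mean (horizontal axis, log2) against that of each other gene (vertical axis, log2), 16 mice per zone. Pearson r is 0.60 and 0.61 with Mup13 and 0.63 and 0.66 with Slco1a1, and -0.31 and -0.09 with Car3.

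The genes whose level over the 32 mouse and zone means was most like that of Bcl6 were sought among the 2908 genes above the LOQ in at least 48 AOIs, as a description in which the points share mice, slides and background. Pard3 (r = 0.56), Ppp1r3b (0.56), Cyp4f13 (0.55), Slc38a10 (0.53) and Gaa (0.53) had the highest r with Bcl6, and Onecut1 (-0.56), Tor1aip2 (-0.55), Kdsr (-0.53), Adora1 (-0.53) and Rasgrp2 (-0.53) the lowest, around a median of 0.10. Ppp1r3b encodes a subunit that directs a phosphatase to glycogen, and Onecut1 encodes HNF6, a transcription factor of hepatocytes. With the group means taken out, r fell to 0.19 for Gaa and stayed at 0.57 for Pard3, 0.48 for Ppp1r3b and -0.57 for Onecut1. Of the other members, Slco1a1 was placed 14th of 2908 (r = 0.49), Mup13 the 58th (0.41), Egfr the 59th (0.41), Igf1 the 1034th (0.16) and Car3 the 1195th (0.14).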

How the data were processed

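Per the labels and the methods, the authors imaged liver sections on the GeoMx platform with the Mouse Whole Transcriptome Atlas, and reads were collapsed to deduplicated counts per probe by the platform's pipeline (build mm10, version not given in the sources used here). The deposited gene abundances are a signal scaled by the authors so that each AOI has the same upper quartile (60.2). This fixes the upper quartile of an AOI and not its total, and each value is relative to that quartile. The sample sheet deposited by the authors also holds counts of nuclei and reads, and the sequencing saturation as a percentage. The methods name nuclei normalization and DESeq2, whereas the deposited values carry the upper-quartile scale. Dividing by each AOI's step gave whole reads for 99.95% of values (tolerance 0.01). The position of the Gaa probe is not given in the sources used here.

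The 3 AOIs of each mouse and zone were averaged, so n is 4 mice per group. Genes past the LOQ in 10 or more of the 96 AOIs were tested (6805 of 7394). Values as log2(value + 1) were fitted in limma 3.58.1 (R 4.3.3), with mouse as a block between zones, and p-values were adjusted by Benjamini-Hochberg over all 6805 genes. Calls were made at adjusted p below 0.05. The methods' added threshold of 0.8 on the log2 scale was not applied to the calls. Alternatives used edgeR 4.0.16, DESeq2 1.42.0, recovered reads, other scalings, filters and pseudocounts, and leaving out each mouse. Relations across mice used permutation tests, two-sided (SciPy 1.17.1, Python 3.11.15, pandas 2.3.3). The fits were tested on simulated data. AOIs of a mouse share a section and are not independent. Precision is limited by the 4 mice per group, and at low levels by background.

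The members and gene lists were chosen with earlier results of these data known. All 6 members are named in every comparison. Per list, up to 4 genes with the smallest adjusted p in the HFD against LFD comparison of Wt mice, in the zone with the larger count, were eligible to be named, and other list genes are named by role after their values were seen. The 5 genes with the highest and the 5 with the lowest r with Bcl6 are named. Sequences and coordinates are those of RefSeq for GRCm38.p6.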

Additional observations from a re-analysis of the deposited data

Results flagged for a closer look

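In each of 48 sets of 4 mice (6 genes in 8 groups of genotype, diet and zone), the gap between the most extreme mouse and its nearest neighbour was divided by the range of the set and compared with Dixon's 95% critical value for 4 samples. Chance alone passes about 1 set in 20. The ratio was taken on the log2(value + 1) scale, and for 2 sets it was above the critical value. Perivenous Slco1a1 in Wt HFD mouse 1 was 56.6, against 91.8 to 100.1 in the other mice of the group (ratio 0.977). This is the mouse with the lowest background of its group. Periportal Car3 in HetKO HFD mouse 4 was 240.2, against 447 to 455 in the others (ratio 0.98), while its perivenous Car3, 922, was the highest of the group.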

How the results depend on the processing

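Of 39 member results called in the main analysis, TMM scaling, edgeR on recovered reads, a pseudocount of 10 and no detection filter kept all, scaling by nuclei lost 23, subtracting the negative probe 14 and fitting all groups together 9. Leaving out the mouse as a block kept 7 of the called zone results and lost 11. Among the 39 are 6 results per zone from the diet comparison of Wt mice, which chose members. Nothing is read from those being kept. Under nuclei scaling the all-gene median shifted by up to 0.84. Causes were not tested. Most counts of members below stand without the share of all genes called under their setting, so nothing is read from them. The genotype comparison on HFD also shares its Wt mice with the choice of members. The counts of members called changed as follows. For HetKO against Wt on LFD periportally it was 4 with scaling by nuclei, under which 6238 of 6805 genes were called, and 1 with DESeq2 on recovered reads (Bcl6, which this comparison chose). For HetKO against Wt on HFD it was 2 in each zone with the replicate number as a block. For the diet in Wt mice it was 1 periportally relative to the hepatocyte markers, and perivenously 1 with scaling by nuclei, 3 with the replicate block and 1 relative to the markers. For the diet in HetKO mice it was periportally 0 with the negative probe subtracted and 1 with all groups in one fit, and perivenously 0 with scaling by nuclei, 3 with the negative probe subtracted, 0 with all groups in one fit and 2 relative to the markers. Between zones it was, in Wt LFD, 2 with scaling by nuclei and 3 with no replicate block, in Wt HFD 1 with scaling by nuclei, 1 with the negative probe subtracted and 0 with no replicate block, in HetKO LFD 1 with scaling by nuclei and 1 with no replicate block, and in HetKO HFD 1 with the negative probe subtracted. Same-numbered mice did not deviate together throughout (r between -0.591 and 0.482), so the numbers were not taken as pairs.

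Relative to the hepatocyte markers, a setting added after the data were seen, some diet differences changed sign. These were Bcl6 (0.63), Igf1 (0.26) periportally and Bcl6 (0.29), Egfr (0.031) and Igf1 (0.50) perivenously in Wt mice, and Igf1 (0.046) periportally and Car3 (0.28) and Igf1 (0.25) perivenously in HetKO mice. With the negative probe subtracted, r of Bcl6 changed sign, to 0.081 with Car3 and 0.24 with Igf1 periportally and to 0.22 with Car3 perivenously. Its r with Mup13, Slco1a1 and Egfr under this setting is given above. With scaling by nuclei r was 0.30 with Car3 and 0.68 with Igf1 periportally and 0.75 with Car3 perivenously. Under it 9 of the 10 relations with Bcl6 passed. Scaling by nuclei does not bring the AOIs to a common read level, and all genes of an AOI share that level. The r of Bcl6 with all genes was not computed under it, so nothing is read from this count.

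Leaving out each mouse in turn, members called ranged from 0 to 2 for HetKO against Wt on HFD in either zone, from 4 to 6 periportally and 3 to 6 perivenously for the diet in Wt mice, and from 1 to 4 and 3 to 5 in HetKO mice. The perivenous count of 3 in Wt mice was without Wt LFD mouse 3, and did not hold Bcl6, Car3 and Igf1. The range was 0 to 1 for the perivenous diet by genotype test and 0 to 2 for the relations with Bcl6. The r of Bcl6 with Igf1 periportally ranged from -0.21 to 0.13 and that with Car3 perivenously from -0.19 to 0.0071. Of 57 member results not called, 35 changed sign under at least 1 setting. The ranges of members called stand without the share of all genes called, so nothing is read from them.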
